A study of Mus musculus with 19 samples.

Results

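The collagen gene family was read on 19 arrays of mouse cerebellar progenitors and medulloblastoma-model tumors. Members were all genes whose symbol is Col, a number, the letter a and a number. The arrays held 42 such genes among 18193, each read by its brightest probe set, judged on the average of all 19 arrays. Values are log2 probe set signals, so a step of 1 is a 2-fold step in signal, and a probe set's level is compared here only with its own level on other arrays. Of the 42, 32 reached their array's median signal on at least 3 arrays and were tested, within the 12148 genes tested in all. Of the 32, Col8a1 and Col14a1 passed through NEP arrays alone and Col4a4 through NEP tumor arrays alone, so that they had to be high there. Their values are described. Counts called in the fit over all 19 arrays are given for each comparison with and without these 3, and other counts include them. No detection calls were used, and a mean under the array median, as for 13 of the 32 in GNPs, may lie at the floor of the array, so a difference against it may be too small.

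Collagens are secreted proteins in which chains wind into a triple helix, and most types need a fixed combination of chains. Fibrillar collagens form the cables of connective tissue, type IV forms the sheet of basement membranes, and other types decorate fibrils, link cells to the matrix or span the cell membrane. In the brain, collagen is found mainly in the meninges and around blood vessels, made largely by fibroblasts, pericytes and endothelial cells, while some neural progenitors and glia make particular chains.

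The progenitor groups were NEPs, Nestin-positive progenitors (4 arrays), GNPs, Math1-positive granule neuron progenitors (4 arrays), and NSCs, CD133-positive and lineage-negative cerebellar progenitors (3 arrays). The tumor groups were named by the mouse they came from: NEP tumors arose in Nestin-CreERT2/Ptch1C/C animals (4 arrays) and GNP tumors in Math1-CreERT2/Ptch1C/C animals (4 arrays). Ptch1 is the receptor that restrains Hedgehog signalling, and in each tumor model a tamoxifen-inducible Cre acts only in cells in which the Nestin or the Math1 promoter is active. All mice were C57BL/6, and by the labels the cells were taken straight from the cerebellum and neither cultured nor treated before RNA extraction; how tamoxifen was given is not described there. Neither age nor sex nor any pooling of animals is labelled, and nothing says that arrays of a group came from separate animals, so p-values measure only the spread between these arrays. NEP and GNP arrays carry one series number in their titles and NSC and tumor arrays another, so group and array series cannot be told apart in any comparison across that line.

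The label genes were checked first. Nes, which encodes Nestin, was 5.87 ± 0.19 in NEPs (SD, n = 4) against 3.49 ± 0.35 in GNPs (n = 4), and Atoh1, the mouse Math1, was 3.95 ± 1.59 in NEPs against 8.85 ± 0.086 in GNPs. In NSCs (n = 3) Atoh1 was 8.93 ± 0.012 and Prom1, which encodes CD133, 8.08 ± 0.11, below the 8.61 ± 0.30 of NEPs. Ptch1 lay between 11.18 and 11.59 on the 8 tumor arrays and between 10.17 and 10.90 on the 11 progenitor arrays, and since the place of its probe set relative to the deleted part is not known here, this checks nothing about the deletion. The 4 NEP arrays fell into 2 pairs for many genes, so NEP arrays 1 and 2 are described apart from 3 and 4. Fitted differences and group means cover all 4 NEP arrays unless stated. In 17 pericyte, fibroblast and meningeal markers, the log2 of the summed signal was 12.98 to 13.01 on NEP arrays 1 and 2, 10.07 to 10.24 on arrays 3 and 4, 8.86 to 9.31 in GNPs, 11.35 to 11.43 in NSCs, 9.27 to 9.42 in GNP tumors and 9.24 to 10.20 in NEP tumors. On both NEP arrays 3 and 4, 12 of these 17 markers stayed above the array median, and 2, Anpep and Nkd2, were below it. Microglial markers differed more between the pairs, at 13.42 to 13.44 on arrays 1 and 2 and 6.47 to 8.96 on arrays 3 and 4, where Aif1, P2ry12, Tmem119, Itgam and Trem2 were under the median, while Bergmann glia and astrocyte markers were alike at 14.41 to 14.49 and 14.32 to 14.62. The 12 granule neuron progenitor markers summed to 14.07 to 14.14 in NSCs, close to the 14.16 to 14.21 of GNPs. In NEPs they summed to 12.58 to 13.18. In bulk RNA, fewer cells of a type and less RNA per cell cannot be told apart, and the part that other cell types have in the collagen values was not tested.

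**Figure D1:**
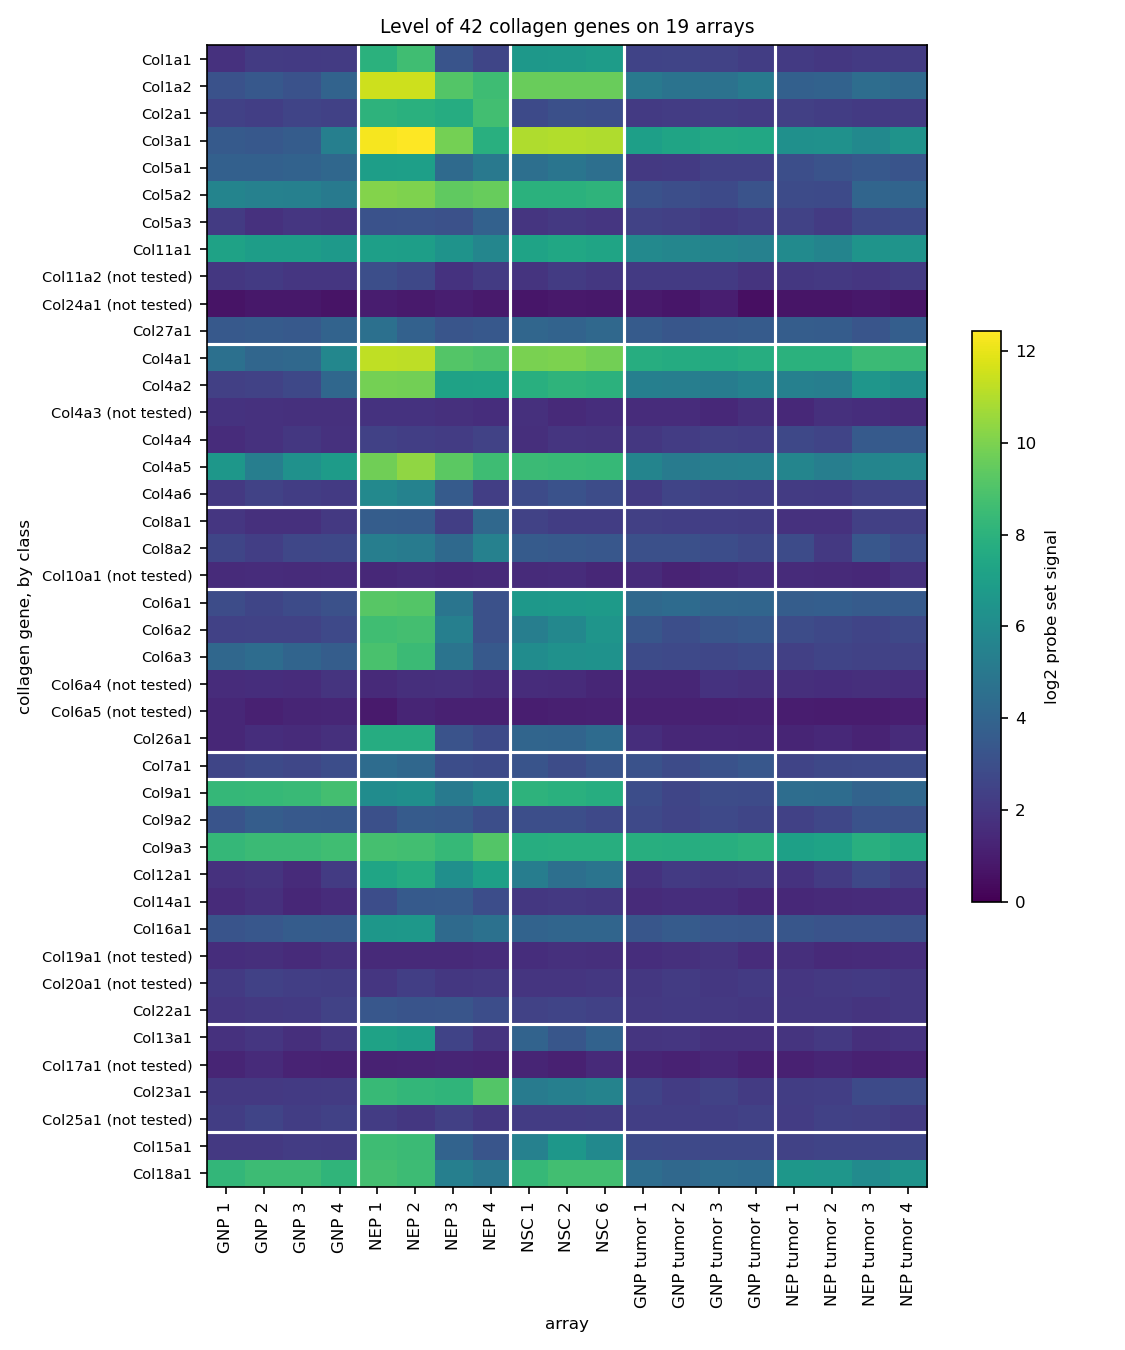
Log2 probe set signal of the 42 collagen genes (rows, by class, white lines between classes) on the 19 arrays (columns, by group). Colour is to be read along a row; the rows of the 10 genes that were not tested stay dark throughout, and NEP arrays 1 and 2 hold the brightest stretch of many rows.

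Most collagens were higher in NEPs than in GNPs. Of the 32 tested, 26 were called higher and 2 lower (limma, adjusted p below 0.05), where 29.6% of all tested genes were called higher, 39.9% lower and 69.5% in either direction. Without Col4a4, Col8a1 and Col14a1, 23 of 29 were higher and 2 lower. In all, 24 of the 32 were called and at least 2-fold higher by the difference of means, against 15.7% of all tested genes. The median collagen difference was 2.42, against -0.11 over all tested genes. For 22 collagens every NEP array lay above every GNP array, as for 24.5% of all tested genes, and for Col9a1 every NEP array lay below, as for 32.7%. NEPs had the highest mean of the 5 groups for 23 of the 32, NSCs for 6, GNPs for 2, NEP tumors for 1 and GNP tumors for none, and NEPs had the highest mean for 30.7% of all tested genes. Col8a1 and Col14a1, tested only because NEP arrays were high, are among the 24, the 22 and the 23. For 12 of the 23 the NEP and NSC arrays overlapped, a share that was not counted over all tested genes. With the NEP mean taken over arrays 3 and 4 alone, NEPs were highest for 13 collagens (28.4% of all tested genes) and NSCs for 16. Fitted with NEP arrays 3 and 4 alone, 23 collagens were called higher and 3 lower (27.1% and 33.2% of all tested genes), with Col13a1, Col6a3 and Col7a1 no longer called and Col11a1 called in addition. With NEP arrays 1 and 2 alone, 27 were called higher and 1 lower (30.3% and 41.7%).

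Among the chains of fibrils, the pair that builds type I collagen, the main collagen of skin, bone and meninges, differed in how evenly it was high. Col1a2 was 11.50, 11.48, 9.13 and 8.59 on NEP arrays 1 to 4 and 3.14, 3.43, 3.12 and 3.97 on the GNP arrays. No NEP array came near a GNP array, and the difference of 6.76 (SE 0.49, limma adjusted p = 2.63e-09) was the largest fitted difference of the family, a 109-fold step in signal. Col1a1, its partner chain, was 7.95 and 8.65 on NEP arrays 1 and 2, 3.25 and 2.62 on arrays 3 and 4, and 1.79 to 2.17 in GNPs. Its difference of 3.56 (SE 0.94, adjusted p = 2.99e-03) rested mostly on the first pair. Against GNPs it was 6.24 for arrays 1 and 2 and 0.88 for arrays 3 and 4. The SE draws on the spread in all 5 groups, and the SD of the 4 NEP arrays alone was 3.12. The call of Col1a1 was lost when only NEP and GNP arrays were fitted with replicate number as a block.

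Col3a1 forms type III collagen, the fine fibrils that run with type I in vessels and meninges. Its NEP values were 12.29, 12.44, 9.83 and 7.85 for arrays 1 to 4, and its GNP values 3.54, 3.45, 3.63 and 5.35, where array 4 was the high one. The groups did not overlap, and the difference was 6.61 (SE 0.72, adjusted p = 4.54e-07). Col5a1 and Col5a2 encode chains of type V collagen, which sets the width of type I fibrils. Col5a2 was 10.14, 10.04, 9.41 and 9.55 in NEPs and 5.60, 5.49, 5.43 and 5.14 in GNPs, a difference of 4.37 (SE 0.26, adjusted p = 1.49e-10) that held within either pair. Col5a1 was 6.99 and 7.04 on NEP arrays 1 and 2 but 4.29 and 5.02 on arrays 3 and 4, close above the 3.81 to 4.17 of GNPs. The third type V chain, Col5a3, was modestly higher, at 3.33 ± 0.36 in NEPs against a mean of 1.95 in GNPs that is under the array median.

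Col2a1 encodes the only chain of type II collagen, the fibril of cartilage, which is also made in the embryonic neural tube. It was 8.03, 7.88, 7.73 and 8.67 on the NEP arrays and 2.42, 2.33, 2.53 and 2.40 in GNPs, a difference of 5.66 (SE 0.14, adjusted p = 2.10e-15). The GNP mean is under the array median. The mean of NEP arrays 3 and 4, 8.20, was no lower than the 7.96 of arrays 1 and 2. Its fibril partner Col11a1 went another way, at 7.01, 6.97, 6.42 and 5.70 in NEPs against 6.68 to 7.15 in GNPs, and the difference of -0.39 did not pass the test. A less bright probe set of Col11a1 was called lower in NEPs, at -0.72. Col11a2 was not tested, since it reached the median on only 2 arrays, both of them NEP arrays, and Col27a1 (3.80 ± 0.59 in NEPs, 3.61 ± 0.22 in GNPs) did not pass the test.

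Promoter stretches are printed for the 3 members with the largest NEP to GNP differences. Each holds the 150 bases before the start site in the tables of RefSeq promoters (GRCm38.p6). For Col23a1 that site is 51289920, but the annotated span of the gene begins at 51289679, so its printed stretch lies inside the gene. Capitals mark, on either strand, the CCAAT box (CCAAT), the GC box motif (GGGCGG) or the TATA box motif (TATAAA), and the stretches are chr6:4505468-4505617, chr1:45311388-45311537 and chr11:51289770-51289919, all on the + strand.
Col1a2: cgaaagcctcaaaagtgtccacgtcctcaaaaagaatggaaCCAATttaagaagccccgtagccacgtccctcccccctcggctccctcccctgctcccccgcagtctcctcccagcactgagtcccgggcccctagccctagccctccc
Col3a1: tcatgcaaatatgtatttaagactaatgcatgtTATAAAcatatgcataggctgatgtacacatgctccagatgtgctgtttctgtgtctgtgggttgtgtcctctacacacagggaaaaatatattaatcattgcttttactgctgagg
Col23a1: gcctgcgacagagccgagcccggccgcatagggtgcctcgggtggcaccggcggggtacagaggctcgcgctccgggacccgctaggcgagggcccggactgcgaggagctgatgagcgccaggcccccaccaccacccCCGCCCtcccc

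These 3 stretches do not look alike: 62.7% of the bases are G or C for Col1a2, 37.3% for Col3a1 and 76.7% for Col23a1. The table held 36 windows for 33 of the 42 collagens, each of 300 bases from 250 before the start. CCAAT, read on both strands, was in 36.1% of the collagen windows and 37.4% of all 32851 windows, TATAAA in 13.9% and 13.6%, and GGGCGG in 61.1% and 35.7%. No motif contains another, and a match is only a description of the letters.

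Type IV collagen is the network of basement membranes, and its most widespread form is built from Col4a1 and Col4a2. The 2 genes lie head to head on opposite strands in GRCm38.p6. Their start sites in the promoter tables are 21 bases apart, so that their first transcribed bases overlap. The stretch chr8:11312800-11312829 holds both of these start sites and is shown on the + strand. Capitals run from the site of Col4a2 to that of Col4a1, whose annotated span reaches further, to 11312889.
Col4a1 and Col4a2: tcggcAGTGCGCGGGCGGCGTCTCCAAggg

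Both genes moved together on the arrays. Col4a1 was 11.23, 11.19, 9.13 and 8.97 on NEP arrays 1 to 4 against 4.60, 4.11, 4.22 and 5.77 in GNPs, a difference of 5.46 (SE 0.45, adjusted p = 1.52e-08). Col4a2 was 9.86, 9.79, 7.16 and 7.21 in NEPs against 2.37, 2.45, 2.72 and 4.16 in GNPs, a difference of 5.58 (SE 0.55, adjusted p = 1.54e-07). For both, the groups did not overlap and GNP array 4 was the highest of its group, as it was for Col3a1. Another head-to-head pair, Col4a5 and Col4a6 on the X chromosome, has start sites 1343 bases apart in the promoter tables and moved less alike. Col4a5 was 9.76, 10.36, 9.30 and 8.59 in NEPs and 5.34 to 6.83 in GNPs, up by 3.24 (SE 0.31, adjusted p = 1.04e-07). Col4a6 was 5.84 and 5.54 on NEP arrays 1 and 2, but 3.58 and 2.31 on arrays 3 and 4, which meets the GNP range of 2.07 to 2.47. Col4a4, a chain of the specialised basement membranes of kidney and inner ear, was 2.34 ± 0.12 in NEPs and 1.78 ± 0.20 in GNPs, both under the array median, and it passed the filter only through NEP tumor arrays.

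Type VI collagen forms beaded filaments around cells from the chains of Col6a1, Col6a2 and Col6a3, and all 3 split the NEP arrays. Col6a1 was 9.20 and 9.12 on NEP arrays 1 and 2, 4.83 and 3.09 on arrays 3 and 4, and 2.59 to 3.09 in GNPs. Col6a2 was 8.63, 8.72, 5.36 and 3.11 on the NEP arrays and 2.42 to 2.76 in GNPs. Col6a3 was 8.88, 8.50, 4.81 and 3.47 on the NEP arrays, and its GNP arrays, at 3.67 to 4.39, lay above NEP array 4. The differences of 3.70 (SE 0.93, adjusted p = 2.04e-03), 3.93 (SE 0.84, adjusted p = 5.21e-04) and 2.35 (SE 0.81, adjusted p = 0.017) were all called, and that of Col6a3 was lost without NEP array 1 (1.53) or 2 (1.66). The call of Col6a3 was also lost when only NEP and GNP arrays were fitted. Col26a1, grouped here with the beaded filament chains, had the same shape, at 7.73, 7.71, 3.20 and 2.79 in NEPs and 1.37 to 1.70 in GNPs.

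The collagens that sit on fibrils, the FACIT class, held calls in both directions. Col12a1, which bridges fibrils in tendon and fascia, was 7.32, 7.65, 6.18 and 7.06 in NEPs and 1.78, 1.88, 1.51 and 2.17 in GNPs, a difference of 5.22 (SE 0.26, adjusted p = 1.20e-11). Col22a1 (3.21 ± 0.18 against 2.15 ± 0.20) and Col16a1 (5.55 ± 1.25 against 3.45 ± 0.19) were also called higher, and Col14a1 was 3.25 ± 0.35 against 1.57 ± 0.13. The 3 chains of type IX collagen, a cartilage fibril coat, did not move as a set. Col9a1 was 8.27, 8.31, 8.44 and 8.72 in GNPs and 6.06, 6.20, 5.07 and 5.80 in NEPs, so every GNP array was higher and the difference was -2.65 (SE 0.19, adjusted p = 2.23e-09). Col9a3 (8.73 ± 0.33 in NEPs, 8.47 ± 0.14 in GNPs) and Col9a2 (3.26 ± 0.29 and 3.45 ± 0.19) did not pass the test.

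Transmembrane collagens stay in the membrane of the cell that makes them. Col23a1 was 8.37, 8.23, 8.14 and 9.11 on the NEP arrays and 2.05, 2.07, 2.12 and 2.16 on the GNP arrays. All NEP arrays were high, and the difference was 6.37 (SE 0.18, adjusted p = 9.70e-15), against a GNP mean under the array median, so its place among the largest differences is not settled. Col13a1, found at neuromuscular and other cell junctions, was 7.16 and 7.0 on NEP arrays 1 and 2, but 2.53 and 1.89 on arrays 3 and 4, within or near the GNP range of 1.67 to 2.01.

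The 2 multiplexins, collagens of basement membrane zones that carry heparan or chondroitin sulfate chains, took opposite courses. Col15a1 was 8.57, 8.50, 3.95 and 3.28 on the NEP arrays and 2.07 to 2.22 in GNPs, up by 3.94 (SE 0.87, adjusted p = 7.14e-04). Col18a1, the source of endostatin, was 8.26, 8.53, 8.51 and 8.16 in GNPs and 8.75, 8.55, 5.36 and 4.88 in NEPs. NEP arrays 1 and 2 stood just above the highest GNP array and arrays 3 and 4 were far lower. The difference over all 4, -1.48 (SE 0.63, adjusted p = 0.044), lost its call without any single GNP array or without NEP array 3 or 4, at -1.55 to -0.81, and a second bright probe set gave -0.58, which was not called.

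The 2 network-forming chains of type VIII collagen, made by endothelial and smooth muscle cells, had higher NEP means. Col8a2 was 5.33, 5.16, 4.25 and 5.48 against 2.33 to 2.68 in GNPs, and Col8a1 was 3.69, 3.60, 2.33 and 4.19 against 1.72 to 2.06. The difference of Col8a2 was 2.49 (SE 0.25, adjusted p = 1.63e-07), and that of Col8a1, 1.58, is a description. Col7a1, the anchoring fibril of skin, was called higher by 0.82, and not without NEP array 1 (0.53) or 2 (0.62), nor with only NEP and GNP arrays fitted. Col8a1 reached the array median on 3 arrays and Col14a1 on 4, all of them NEP arrays.

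**Figure D2:**
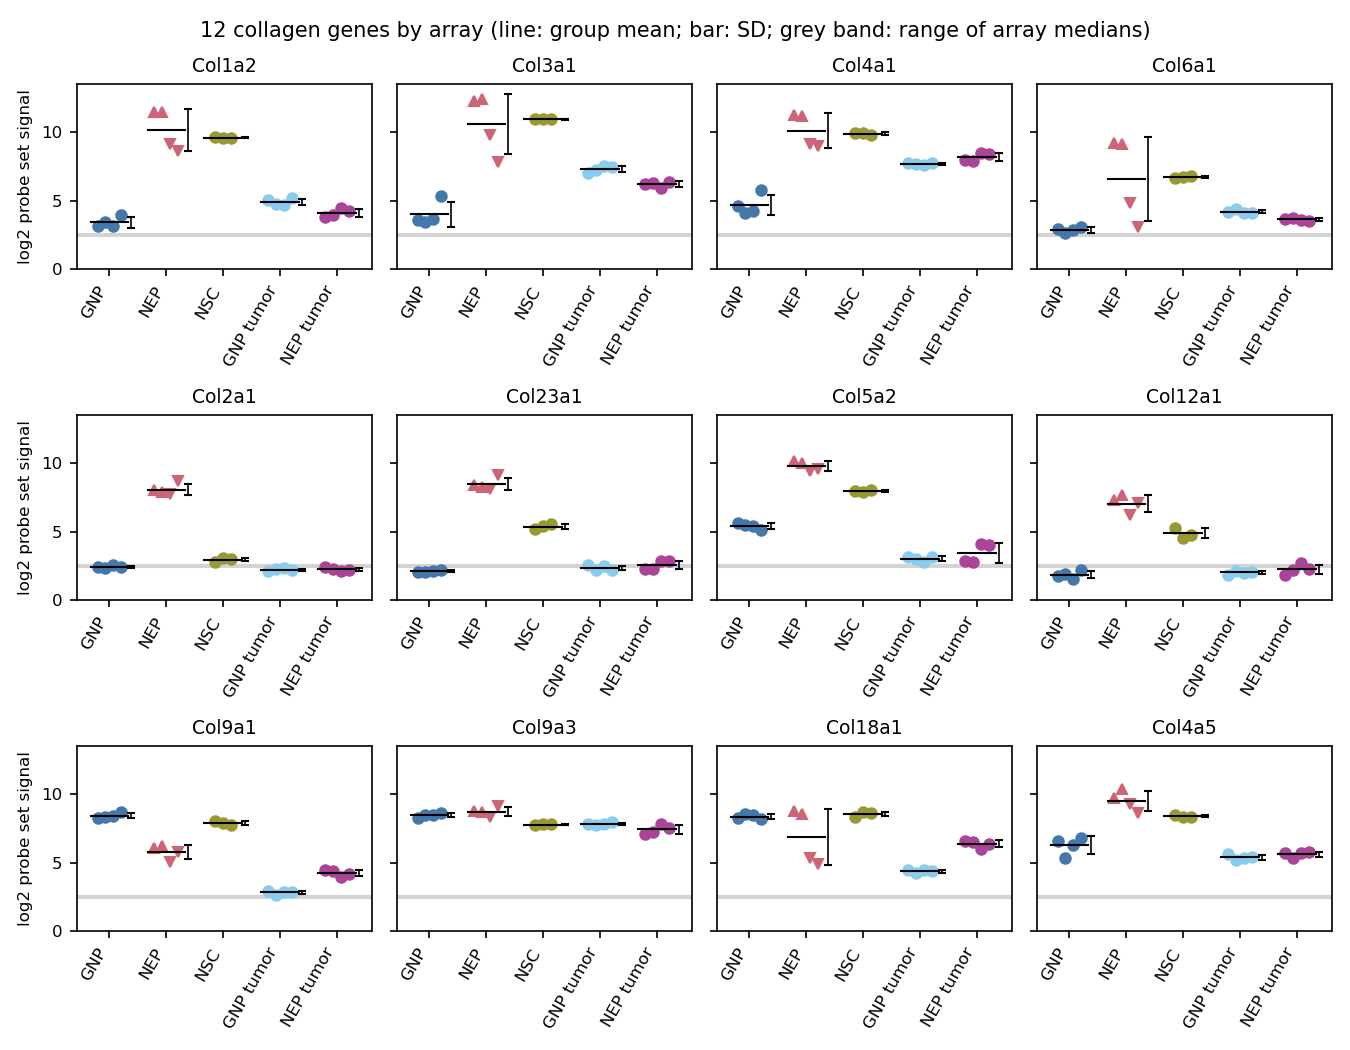
Log2 probe set signal of 12 collagens by array in the 5 groups; triangles pointing up are NEP arrays 1 and 2, triangles pointing down NEP arrays 3 and 4, lines are group means, bars SD and the grey band the range of array medians (2.44 to 2.57). Col2a1, Col23a1, Col5a2 and Col12a1 hold the 4 NEP arrays together, while Col1a2, Col3a1, Col4a1, Col6a1 and Col18a1 part them.

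The pairs of NEP arrays divided the family. On arrays 1 and 2, 17 of 32 collagens (53.1%) were higher by over 1 than on arrays 3 and 4, against 7.15% of all tested genes, and 0 were lower by over 1, against 2.17%. The median difference between the pairs was 1.27 for collagens and -0.096 for all tested genes. With 2 arrays a pair these are descriptions. The widest gaps were those of Col1a1 (5.37), Col6a1 (5.20), Col15a1 (4.92), Col13a1 (4.87), Col26a1 (4.72), Col6a3 (4.55) and Col6a2 (4.44). In 10 of the 17, arrays 3 and 4 still averaged at least 1 above GNPs, as for Col1a2 (5.45), Col3a1 (4.85), Col4a1 (4.38) and Col4a2 (4.26). In the other 7, which were Col1a1, Col4a6, Col5a1, Col6a3, Col7a1, Col13a1 and Col18a1, they did not. A further 8 collagens agreed within 1 between the pairs while both stood at least 1 above GNPs. They were Col2a1, Col5a2, Col5a3, Col8a1, Col8a2, Col12a1, Col14a1 and Col23a1, of which Col8a1 and Col14a1 were tested only because NEP arrays were high. The counts of 10, 7 and 8 were not set against all tested genes, so they only describe these collagens. The pericyte, fibroblast and meningeal, endothelial, microglial and oligodendrocyte marker sums were lower on arrays 3 and 4 as well, the last at 11.67 against 13.42 to 13.44. Granule neuron progenitor sums were higher there, at 13.17 to 13.18 against 12.58 to 12.69, and so were differentiating neuron sums, at 11.57 to 12.08 against 10.70 to 10.81. Their part in the collagen values was not tested.

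**Figure D3:**
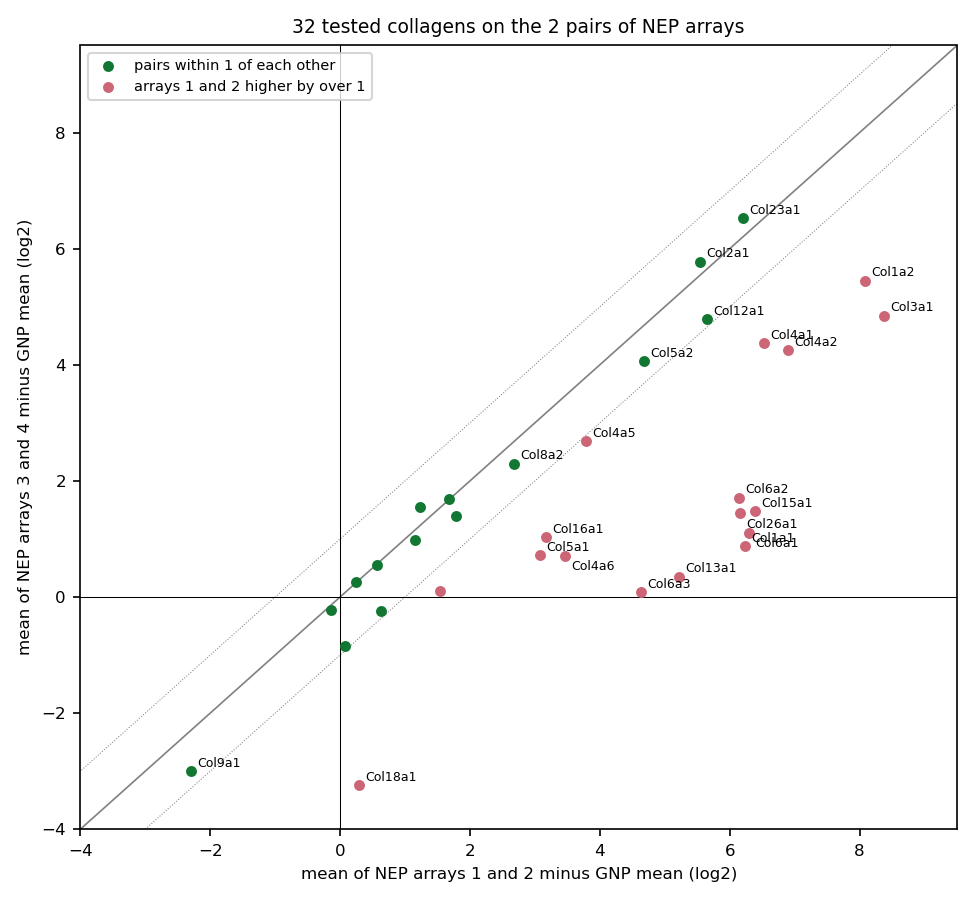
Each of the 32 tested collagens by its mean on NEP arrays 1 and 2 (x axis) and on NEP arrays 3 and 4 (y axis), both as log2 difference from the GNP mean; dotted lines lie 1 above and below equality. The 15 green points stay within 1 of equality, among them Col23a1, Col2a1 and Col12a1, and the 17 red points lie lower, among them Col1a1 at 6.24 and 0.88.

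Against NSCs, NEPs had higher levels of a smaller set. Of the 32 collagens, 15 were called higher in NEPs and 3 lower, where 30.9% of all tested genes were called higher, 27.6% lower and 58.4% in either direction. Without Col4a4, Col8a1 and Col14a1, 12 of 29 were higher and 3 lower. The largest differences were in collagens that were even over the NEP arrays. Col2a1 was 2.79, 3.03 and 2.99 on the NSC arrays, so that NEPs exceeded them by 5.14 (SE 0.15, adjusted p = 1.85e-13). Col23a1 was 5.19, 5.38 and 5.55 in NSCs, 3.09 lower than in NEPs (SE 0.20, adjusted p = 1.13e-09). Col12a1, at 5.27, 4.55 and 4.78 in NSCs, was 2.19 higher in NEPs (SE 0.28, adjusted p = 4.08e-06), and Col5a2, at 7.96, 7.92 and 8.07, was 1.80 higher (SE 0.28, adjusted p = 3.41e-05). Col8a2 (1.57), Col16a1 (1.51), Col4a6 (4.32 ± 1.67 in NEPs, 2.95 ± 0.15 in NSCs) and Col5a3 (1.34) followed. Of these, Col16a1 and Col4a6 were not even over the NEP arrays, being higher on arrays 1 and 2 by 2.1 and 2.7. Lower in NEPs were Col9a1, with a difference of -2.11 (SE 0.20, adjusted p = 1.96e-07), Col18a1 (-1.67) and Col11a1 (-0.77).

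For 10 other collagens the NSC arrays lay between the NEP pairs, and the sign of the difference depended on the pair. These were Col1a1, Col1a2, Col3a1, Col4a1, Col4a2, Col6a1, Col6a3, Col13a1, Col15a1 and Col26a1, of which none was called over all NEP arrays. The share of all tested genes with this order was not counted, so the 10 only describe these collagens. Col1a1, at 6.65, 6.69 and 6.88 in NSCs, was 1.56 higher on NEP arrays 1 and 2 and far lower on arrays 3 and 4. Col15a1, at 5.49, 6.61 and 5.92 in NSCs, was -2.39 on NEP arrays 3 and 4. Fitted with NEP arrays 3 and 4 alone, 11 collagens were higher and 14 lower than in NSCs (28.9% and 23.9% of all tested genes), and with arrays 1 and 2 alone, 26 were higher and 1 lower (33.8% and 31.5%). The pericyte, fibroblast and meningeal marker sums of NSCs also lay between those of the NEP pairs. The calls of Col4a4, Col4a6, Col5a1 and Col18a1 against NSCs were each lost on leaving out any NSC array, and that of Col11a1 without NSC array 2.

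GNPs had the lower levels of most collagens against NSCs too. Of 32, 17 were called lower and 3 higher, where 13.1% of all tested genes were called lower, 23.2% higher and 36.3% in either direction. With Col4a4, Col8a1 and Col14a1 left out, 16 of 29 were lower and 3 higher. Col3a1, at 10.96 ± 0.035 in NSCs (n = 3), was lower in GNPs, the difference being -6.97 (SE 0.78, adjusted p = 3.89e-06). Col1a2, at 9.62, 9.58 and 9.60, differed by -6.19 (SE 0.53, adjusted p = 1.85e-07), and Col4a1 and Col4a2 by -5.22 and -5.05. Col1a1 (-4.68), Col6a1 (-3.87), Col15a1 (-3.87) and Col6a2 (-3.33) were next. The 3 chains higher in GNPs were those of type IX: Col9a3 by 0.69, Col9a1 by 0.55 and Col9a2 by 0.52. The calls of Col9a1 and Col9a2 were lost without GNP array 2 or 3 or NSC array 6, among others, and that of Col26a1 (-2.59) without any NSC array.

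Between the tumors, few collagens passed the test on all arrays. Of 32, limma called 3 higher in NEP tumors than in GNP tumors and 0 lower, where 15.5% of all tested genes were called higher, 8.1% lower and 23.6% in either direction. At an unadjusted p below 0.05, 4 were higher and 1 lower. Without Col4a4, Col8a1 and Col14a1, 2 of 29 were called higher. The median collagen difference was 0.0038, against 0.049 over all tested genes. Col18a1 was 6.58, 6.54, 6.02 and 6.39 in NEP tumors and 4.45, 4.23, 4.44 and 4.37 in GNP tumors, higher by 2.01 (SE 0.63, adjusted p = 0.028), with no overlap. Col9a1 was 4.45, 4.38, 3.95 and 4.18 in NEP tumors and 2.93, 2.61, 2.87 and 2.83 in GNP tumors, higher by 1.43 (SE 0.19, adjusted p = 6.24e-05). Col4a4 was 2.71, 2.56, 3.52 and 3.54 in NEP tumors and 2.03 to 2.36 in GNP tumors, a difference of 0.86 that is only a description, since Col4a4 was tested because its NEP tumor arrays were high.

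The spread used in that test is shared by all groups and is wide for collagens that part the NEP arrays. For Col6a1 the 95% interval of the tumor difference ran from -2.52 to 1.40. Fitting only the 8 tumor arrays called 13 collagens, 5 higher and 8 lower in NEP tumors, where that fit called 19.3% of all tested genes higher, 11.5% lower and 30.8% in either direction. The 8 lower were Col1a1 (-0.34), Col1a2 (-0.80), Col3a1 (-1.11), Col6a1 (-0.56), Col6a2 (-0.55), Col6a3 (-0.30), Col7a1 (-0.41) and Col15a1 (-0.20), the same 8 whose tumor groups did not overlap in that direction, as was so for 13% of all tested genes. Of these, Col1a1 was under the array median in both tumor groups and Col6a3 in NEP tumors, so their differences compare values near the floor. The Col15a1 means, 2.53 in NEP tumors and 2.74 in GNP tumors, were close to the median. Besides Col18a1, Col9a1 and Col4a4, Col5a1 (0.95) and Col4a1 (0.50) were higher, and for these 5 every NEP tumor array lay above every GNP tumor array, as for 19.9% of all tested genes. Col4a4 is counted here although its NEP tumor arrays had to be high, and the GNP tumor mean of Col5a1 was under the array median. Col3a1, for example, was 7.04, 7.25, 7.52 and 7.45 in GNP tumors and 6.25, 6.27, 5.91 and 6.39 in NEP tumors, groups that lie apart while the all-array test gave an adjusted p of 0.30. The call of Col18a1 was lost in 7 of the 8 fits that left out 1 tumor array, at 1.94 to 2.03, and its second probe set gave 1.36, which was not called. NEP tumor arrays 3 and 4 were above arrays 1 and 2 for Col4a4, for Col4a2 (6.54 and 6.21 against 5.44 and 5.34) and for Col5a2 (4.07 and 3.99 against 2.83 and 2.78). On the same arrays marker medians were higher, at 3.94 and 4.00 against 2.97 and 2.95 for endothelial markers, 5.30 and 4.52 against 3.79 and 3.59 for microglial markers and 8.24 and 7.78 against 6.99 and 6.97 for Bergmann glia and astrocyte markers. Their part in these values was not tested.

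Whether the gap between lineages was the same in tumors as in progenitors was tested directly, as the NEP tumor minus GNP tumor difference less the NEP minus GNP difference. It was called for 26 of 32 collagens, 23 of them lower and 3 higher, where 25.2% of all tested genes were called lower, 36.7% higher and 61.9% in either direction. Without Col4a4, Col8a1 and Col14a1, 21 of 29 were lower and 3 higher. Col3a1 changed by -7.72 (SE 1.02, adjusted p = 6.94e-06) and Col1a2 by -7.56 (SE 0.69, adjusted p = 9.95e-08). Col23a1 (-6.15), Col2a1 (-5.62), Col4a2 (-5.06), Col12a1 (-4.99) and Col4a1 (-4.95) followed. For Col2a1 the progenitor gap was 5.66, and both tumor means, 2.24 and 2.21, were under the array median, so their difference compares values near the floor. Both tumor means were also under it for Col12a1 (2.23 and 2.00), Col1a1, Col4a6, Col8a1, Col13a1, Col14a1, Col22a1 and Col26a1. For Col23a1 the GNP tumor mean of 2.34 was under the median. The 3 higher were Col9a1 (4.08, SE 0.27, adjusted p = 1.29e-09), Col18a1 (3.49, SE 0.88, adjusted p = 2.78e-03) and Col11a1 (0.82), the last lost in 10 of 16 fits that left out 1 array. Col9a1 was lower in NEPs than in GNPs and higher in NEP tumors than in GNP tumors. Col18a1 had the same signs over all arrays, but on NEP arrays 1 and 2 alone it was 0.28 above GNPs. Its progenitor call was lost in 6 of 8 fits that left out 1 NEP or GNP array. The tumor call of Col18a1 was lost in 7 of 8 fits that left out 1 tumor array. Without NEP arrays 1 and 2 the test called 25 collagens (56.8% of all tested genes), and without NEP arrays 3 and 4 it called 29 (68.2%).

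**Figure D4:**
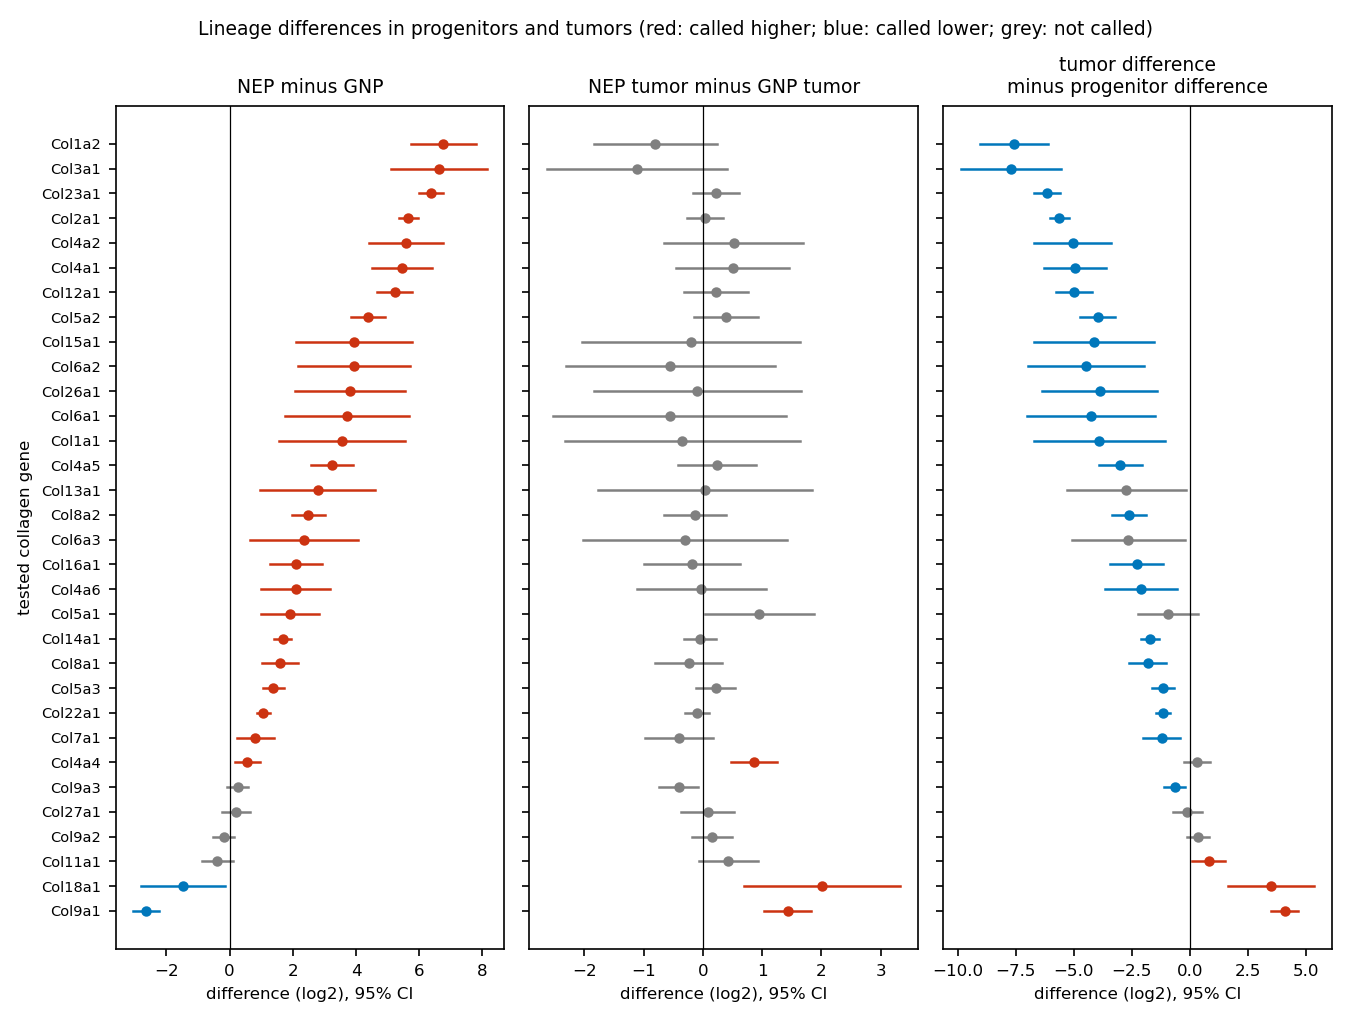
Log2 difference with its 95% confidence interval for the 32 tested collagens (rows, in order of the first panel) between NEPs and GNPs, between NEP tumors and GNP tumors, and for the second less the first; each panel has its own x axis, and red, blue and grey mark called higher, called lower and not called. Points of the first panel run from -2.65 for Col9a1 to 6.76 for Col1a2, those of the second from -1.11 for Col3a1 to 2.01 for Col18a1.

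NEP tumors and NEPs were read in different array series. In that comparison 28 of 32 collagens were called lower in the tumors and 1 higher, where 32.6% of all tested genes were called lower, 36.2% higher and 68.9% in either direction. Without Col4a4, Col8a1 and Col14a1, 26 of 29 were lower. Most cell type marker lists moved too. Called lower were 13 of 17 pericyte, fibroblast and meningeal markers (2 higher) and 9 of 13 endothelial markers (1 higher). So were 11 of 14 Bergmann glia and astrocyte markers (2 higher) and 6 of 9 oligodendrocyte markers (1 higher). Of 14 microglial markers 4 were called lower, near the 32.6% of all tested genes. Called higher were 9 of 12 granule neuron progenitor markers (1 lower) and 9 of 11 differentiating neuron markers (2 lower). The part of these cell types in the collagen values was not tested. Col5a2 fell by 6.36 (SE 0.26, adjusted p = 8.63e-13), from a NEP mean of 9.78 ± 0.36 to 3.42 ± 0.71. Col1a2 (-6.07), Col23a1 (-5.91), Col2a1 (-5.83), Col12a1 (-4.82) and Col3a1 (-4.39) fell as well, and the tumor means of Col2a1 and Col12a1 were under the array median. Col4a1 stood at 7.95, 7.93, 8.50 and 8.42 in NEP tumors, a difference of -1.93 from NEPs. Col4a4, the one called higher, differed by 0.74 and was tested only because its NEP tumor arrays were high. Not called were Col18a1, Col11a1 and Col27a1. Against NEP arrays 3 and 4 alone, Col18a1 was higher in NEP tumors by 1.26 and called.

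From GNPs to GNP tumors, also across array series, collagens went both ways. Of 32, 4 were called higher and 8 lower, where 18.5% of all tested genes were called higher, 31.4% lower and 49.8% in either direction. All of these calls were among the 29 other than Col4a4, Col8a1 and Col14a1. Col3a1 rose from 3.99 ± 0.91 to 7.31 ± 0.22, by 3.32 (SE 0.72, adjusted p = 1.02e-03), and Col4a1 and Col4a2 rose by 3.02 (SE 0.45) and 2.44 (SE 0.55). Col1a2 rose by 1.49 (SE 0.49, adjusted p = 0.018). Col9a1 fell by 5.62 (SE 0.19, adjusted p = 4.68e-13), from 8.43 ± 0.20 to 2.81 ± 0.14, and Col18a1 changed by -4.0 (SE 0.63, adjusted p = 5.16e-05), from 8.37 ± 0.18 to 4.37 ± 0.10. Col5a2 (-2.39), Col5a1 (-1.68) and Col11a1 (-1.25) fell too. Fitting only the 8 arrays of these groups called 24 collagens, 14 higher and 10 lower (23.6% and 35.4% of all tested genes, 59.1% in either direction), and among those gained were Col6a1 (1.33), Col6a2 (0.73) and Col15a1 (0.60) upward and Col6a3 (-1.30) downward. In the same tumors the pericyte, fibroblast and meningeal markers had 8 of 17 members called higher and 1 lower. The microglial markers had 8 of 14 higher, the oligodendrocyte 5 of 9, and the Bergmann glia and astrocyte markers 12 of 14 higher and 1 lower. Endothelial markers had 3 of 13 higher, near the 18.5% of all tested genes. The part of these cell types in the collagen values was not tested.

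**Figure D5:**
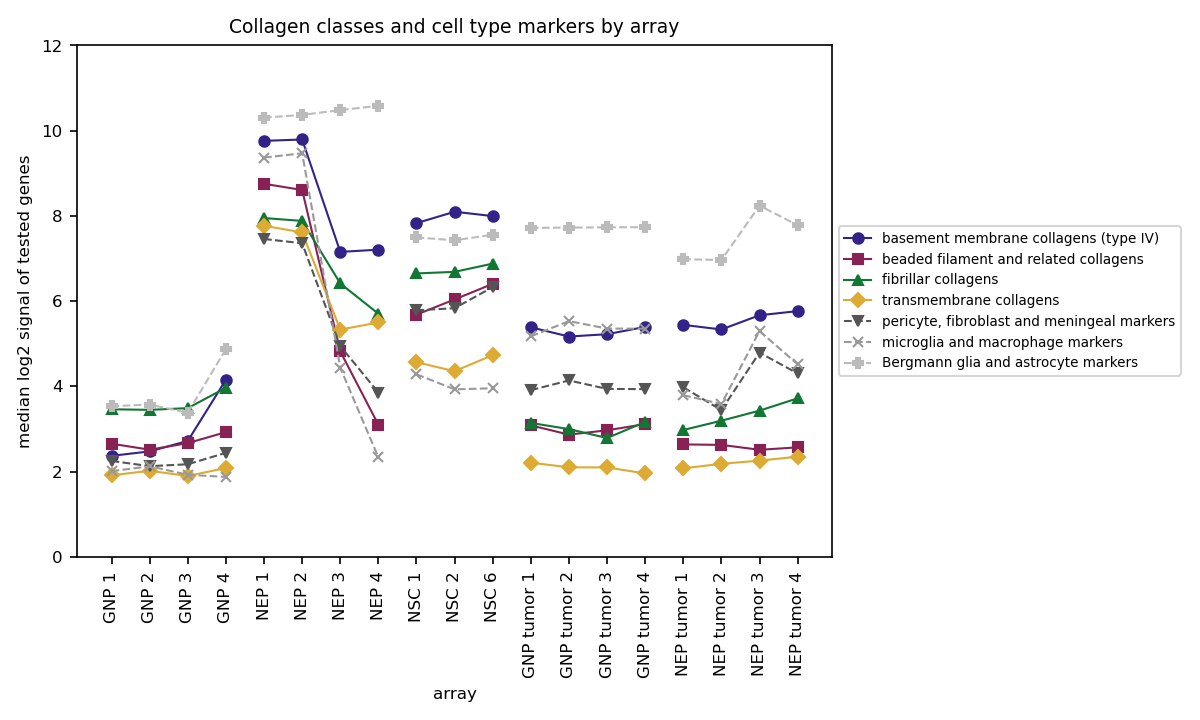
Median log2 signal over the tested genes of 4 collagen classes (solid lines) and of 3 cell type marker lists (dashed lines) on each array. The beaded filament class drops from 8.75 and 8.61 on NEP arrays 1 and 2 to 4.82 and 3.10 on arrays 3 and 4, where the pericyte, fibroblast and meningeal markers stand at 4.95 and 3.86 and the Bergmann glia and astrocyte markers stay at 10.48 and 10.59.

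The genes that make and hold collagen were described from lists chosen by role, again for NEPs against GNPs, where 29.6% of all tested genes were called higher and 39.9% lower. Of 17 tested genes for folding and modifying chains in the endoplasmic reticulum, 14 were called higher and 1 lower, with a median difference of 1.00 against -0.11 over all tested genes. P4ha3 (2.30) and P4ha2 (1.39), prolyl hydroxylase subunits that stabilise the helix, Plod1 (2.26), a lysyl hydroxylase, and Crtap (1.53), a partner of prolyl 3-hydroxylase, were the largest. Of 8 genes for trimming and crosslinking outside the cell, 6 were higher, led by Pcolce (3.73), the enhancer of the C-proteinase, and Tgm2 (2.77), a crosslinking transglutaminase. Among 6 collagen receptors, 4 were higher, with Mrc2 (3.21), the endocytic receptor for collagen, and Itga1 (2.04), an integrin chain, ahead. Among 7 genes of collagen breakdown, 6 were higher and 1 was lower. They include both enzymes, such as Mmp2 (2.87), and their inhibitors Timp4 (7.43) and Timp2 (3.49), which have the largest differences of that list. The median signal of each of these lists was lower on NEP arrays 3 and 4 than on arrays 1 and 2. For folding genes it was 6.86 and 6.79 on arrays 1 and 2 and 5.58 and 5.79 on arrays 3 and 4. For trimming and crosslinking it was 5.67 and 5.36 against 3.57 and 4.03. Breakdown genes had 7.27 and 7.31 against 5.94 and 5.77, and receptors 7.39 and 7.36 against 7.09 and 7.16.

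Partners of collagen in the matrix gave larger differences. Of 11 basement membrane partners, 9 were called higher and 1 lower, with a median of 3.18, led by Nid1 (7.21) and Nid2 (4.48), the nidogens that link laminin to type IV collagen, and by the laminin chains Lama2 (4.34) and Lama1 (4.21). All 7 fibril partners tested were higher, with a median of 4.26, among them Dcn (6.19) and Lum (4.62), small proteoglycans that also serve here as fibroblast markers, and Sparc (5.79), a collagen-binding glycoprotein. These differences were not even over the NEP arrays. The median signal of fibril partners was 9.34 and 9.30 on NEP arrays 1 and 2 and 6.13 and 5.06 on arrays 3 and 4, with a GNP mean of 2.52. For basement membrane partners it was 8.16 and 8.23 against 5.14 and 5.18, with a GNP mean of 3.70. Between the tumors, 3 of 17 folding genes were higher in NEP tumors, P3h4 (1.12), P3h3 (0.71) and P4ha1 (0.61), a share near the 15.5% of all tested genes called higher there. In the trimming list Bmp1 (-1.01), a procollagen proteinase, was lower and Loxl1 (0.51) higher, and Timp1 (-0.76) was the only call in the breakdown list. Limma called 0 of 6 receptors, 0 of 11 basement membrane partners and 0 of 7 fibril partners between the tumors, and at an unadjusted p below 0.05 the counts were 0, 1 and 0.

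The 10 collagens that were not tested reached the array median on 2 arrays at most. Col4a3, Col6a4, Col6a5, Col10a1, Col17a1, Col19a1, Col20a1 and Col24a1 reached the median on no array and ranged from 0.50 to 2.38. Col25a1 reached it on 1 array. Across the family, 27 members had several probe sets, and in none of the comparisons was another probe set of a called collagen called in the opposite direction.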

How the data were processed

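RNA from mouse cerebellar cells, 100 ng of total RNA per array by the labels, was hybridised to 19 Affymetrix Mouse430+2 arrays. The authors deposited log2 values, 1 per probe set. Per the submitters' processing notes the tools were RMA and Affymetrix Expression Console, without a version. The log base was checked on spike-ins (Cre minus BioB was 5.41, where log2 gives 6.06 and the natural log 4.20), and the centring behind the common array mean of 3.79 is not stated. Probe sets with several symbols (932) or none (9160) and 64 controls were left out of 45101. Using limma 3.58.1 under R 4.3.3, 5 group means were estimated over the 19 arrays without a block. Tests were two-sided, p-values were adjusted by Benjamini and Hochberg's method over 12148 genes, and an adjusted p below 0.05 was called. SE is the fit's standard error, and a level is a mean ± SD. The fit was tested on simulated data. Tables and figures used Python 3.11.15 with pandas 2.3.3 and matplotlib 3.10.9.

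Every member is accounted for. Full statistics were planned for up to 8 called members with the largest differences in each comparison and for subunits of one trimer, and for up to 4 members of a pathway list. Members and lists were chosen with earlier results of these data known. Alternatives were other filters, probe set means, a second quantile normalization, a variance trend, only the groups compared, replicate number as a block, and leaving out arrays. Array number limits the precision.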

Additional observations from a re-analysis of the deposited data

Results flagged for a closer look

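Of 128 groups of 4 arrays, 7 held an array far from the other 3, and chance gives about 1 in 20. GNP array 4 was high for Col3a1, at 5.35 against 3.45 to 3.63, and for Col6a2, at 2.76 against 2.42 to 2.48. GNP array 1 was low for Col1a1 (1.79 against 2.13 to 2.17) and GNP array 2 for Col8a2 (2.33 against 2.62 to 2.68). NEP array 4 was high for Col5a3, at 3.87 against 3.11 to 3.20. NEP tumor array 3 was low for Col22a1 (1.85 against 2.00 to 2.02), and GNP tumor array 1 was high for Col26a1 (1.64 against 1.38 to 1.41).

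The tumor difference departed from the progenitor difference, by limma's test of the interaction, for 26 collagens. The fibrillar chains were Col3a1 (-7.72), Col1a2 (-7.56), Col2a1 (-5.62), Col5a2 (-3.97), Col1a1 (-3.90), Col5a3 (-1.17) and Col11a1 (0.82). The type IV chains were Col4a2 (-5.06), Col4a1 (-4.95), Col4a5 (-3.0) and Col4a6 (-2.11). Type VI and its relatives were Col6a2 (-4.48), Col6a1 (-4.26) and Col26a1 (-3.90). On fibrils and in networks, Col12a1 (-4.99), Col8a2 (-2.62), Col16a1 (-2.29), Col8a1 (-1.83), Col14a1 (-1.73), Col7a1 (-1.22), Col22a1 (-1.16) and Col9a3 (-0.66) were lower and Col9a1 (4.08) was higher. The others were Col23a1 (-6.15), Col15a1 (-4.14) and Col18a1 (3.49). Col8a1 and Col14a1 were tested only because their NEP arrays were high.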

How the results depend on the processing

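Of 3810 values of single collagens under the alternatives, 3534 kept their side of the threshold, 159 lost and 103 gained a call, and 14 reversed. A change of sign counted as reversed only where the main or the alternative fit called the collagen. The 3534 therefore include sign changes of values that neither fit called. With NEP arrays 3 and 4 alone, differences from NSCs turned for Col13a1 (-1.53), Col15a1 (-2.39), Col1a2 (-0.74), Col26a1 (-1.15), Col4a1 (-0.85), Col4a6 (-0.0070), Col6a2 (-1.62) and Col6a3 (-2.09), 14 collagens were called lower, and against NEPs 2 were higher in NEP tumors, with Col18a1 at 1.26. With NEP arrays 1 and 2 alone, Col18a1 turned against GNPs (0.28) and NSCs (0.092), Col1a1 (1.56), Col3a1 (1.41) and Col6a1 (2.43) turned against NSCs, 26 collagens were called higher and 1 lower than in NSCs, and 1 lower than in GNPs.

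A filter at the 75 percentile tested 18 collagens and called 16 (14 higher) for NEPs against GNPs, 9 (6 higher) against NSCs, 17 (14 lower) for the interaction and 16 (0 higher, 16 lower) for NEP tumors against NEPs, where fewer genes tested lowers the count. Averaging all probe sets of a gene left 1 collagen called between tumors (1 higher) and 0 higher in NEP tumors than in NEPs. Fitting only the groups compared called 24 collagens for NEPs against GNPs (23 higher, 1 lower), with Col13a1, Col18a1, Col6a3 and Col7a1 lost. Against NSCs this fit called 12 (11 higher, 1 lower), where the main fit called 18. It called 28 for GNPs against NSCs (25 lower), 13 between tumors (5 higher, 8 lower) and 24 (14 higher) for GNP tumors against GNPs. Chosen after seeing the data, NEP tumor arrays 3 and 4 alone gave 5 higher in the interaction, and arrays 1 and 2 alone gave 1 lower between tumors and 0 higher than in NEPs. The causes were not tested.

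Same-numbered arrays did not deviate together, with correlations from -0.16 to 0.071 between NEPs and GNPs and from -0.043 to 0.052 between tumors, so replicate numbers were not taken to pair samples. A replicate block called 23 collagens for NEPs against GNPs (1 lower), with Col13a1, Col18a1, Col1a1, Col6a3 and Col7a1 lost. It called 12 between tumors (5 higher, 7 lower) and 23 (13 higher) for GNP tumors against GNPs.

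Leaving out 1 array at a time, collagens called ranged from 26 to 28 for NEPs against GNPs (24 to 27 higher, 1 to 2 lower), from 13 to 21 against NSCs (12 to 19 higher, 1 to 4 lower), from 16 to 19 for GNPs against NSCs (1 to 3 higher), from 2 to 4 between tumors (2 to 3 higher, 0 to 1 lower), from 25 to 28 for the interaction and from 11 to 13 for GNP tumors against GNPs.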
